A study of Mus musculus with 2 samples.

Results

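The genes examined here were 10 vessel growth factors and receptors, out of 31053 genes in the deposited single-cell matrices of mouse pancreatic islets. Every row whose symbol was Vegfa, Kdr, Flt1, Nrp1, Esm1, Angpt2, Tek, Tie1, Pdgfb or Pdgfrb was taken. All 10 members had at least 1 unique molecular identifier (UMI, a tag that marks 1 captured RNA molecule) in the kept cells of both libraries. The comparison asked which islet cells held each ligand and each receptor RNA, and how their levels differed between the islets of virgin and of multipara mice.

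The mice were wild-type C57BL/6J females, 9 weeks old at the start. Multipara mice went through 3 pregnancies and were examined 3 weeks after the last delivery, while virgin mice were matched in age. The pups were taken out of the cages after birth, which limits the group as a model of nursing dams. A single library stood for each group, and the labels do not say how many mice it pooled. The study's legend gives an n above a single sample for each group without saying what was counted, and no cell in these files could be traced to a mouse. No difference below therefore has a replicate check, no test between groups was run, and each statement compares 2 libraries rather than 2 conditions. All intervals are exact 95% intervals that cover counting error only.

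Pancreatic islets are densely supplied by capillaries with a thin, fenestrated endothelium, and endocrine cells secrete vascular endothelial growth factor A (VEGF-A, from Vegfa) that keeps these capillaries in place. VEGF-A acts on endothelial cells through the receptor tyrosine kinase KDR (VEGFR2), while FLT1 (VEGFR1) binds it tightly and acts largely as a decoy, NRP1 serves as a co-receptor, and ESM1 (endocan) is a proteoglycan secreted by endothelium that responds to VEGF. In the angiopoietin pathway, TEK (TIE2) is the receptor, TIE1 its partner, and ANGPT2 a ligand that endothelial cells release themselves and that mostly antagonises TEK. Endothelial platelet-derived growth factor B (PDGFB) recruits pericytes, the mural cells of capillaries, through their receptor PDGFRB.

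Cells were assigned to classes from hormone or marker UMIs, without clustering and without use of any member. Endocrine cells were gated on insulin (beta), glucagon (alpha), somatostatin (delta) or pancreatic polypeptide (PP) transcripts, and the other cells on at least 3 of 7 markers of their class. After the study's own filter, 4391 virgin and 3374 multipara cells remained. They included 1742 virgin and 1566 multipara beta cells, 973 and 572 alpha cells, 144 and 132 delta cells, 73 and 78 PP cells, 257 and 204 endothelial cells, 65 and 64 pericytes, and 90 and 98 myeloid cells. Fibroblasts were too few in the multipara library for a ratio (30 and 6 cells). Markers that were part of the gates were frequent in the gated cells, which is no independent check of them: Plvap, the diaphragm protein of fenestrated capillaries, had a UMI in 99.2% of the virgin endothelial cells and 99.5% of the multipara ones, and Rgs5 in every gated pericyte of both libraries. Cldn5, a tight junction marker that was part of the endothelial gate, was seen in only 4.28% and 1.47% of endothelial cells. Droplets with 2 or more hormones (571 and 449) were kept out of all classes. The libraries shared 7 barcodes.

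Hormone transcripts were seen in every class, and whether they came from free RNA or from mixed droplets was not tested. They made up a median of 1.27% of the UMIs of a virgin endothelial cell and 2.51% of a multipara one, and 1.69% and 4.12% in pericytes. Sst stood at 2065 CPM (2841 UMIs) in the virgin endothelial gate and at 120 CPM (155 UMIs) in the multipara one. The median depth was 4380 and 5136 UMIs in endothelial cells, 3283 and 3405 in pericytes, and 29980 and 32150.5 in beta cells. Levels are given as CPM, in which the summed UMIs of a gene are divided by those of all genes in the class and scaled to a common total, and ratios as log2 of the multipara over the virgin CPM. A gene was called when it had at least 20 UMIs over both libraries, differed by at least 1.5-fold and had an interval that left out a ratio of 1.

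**Figure D1:**
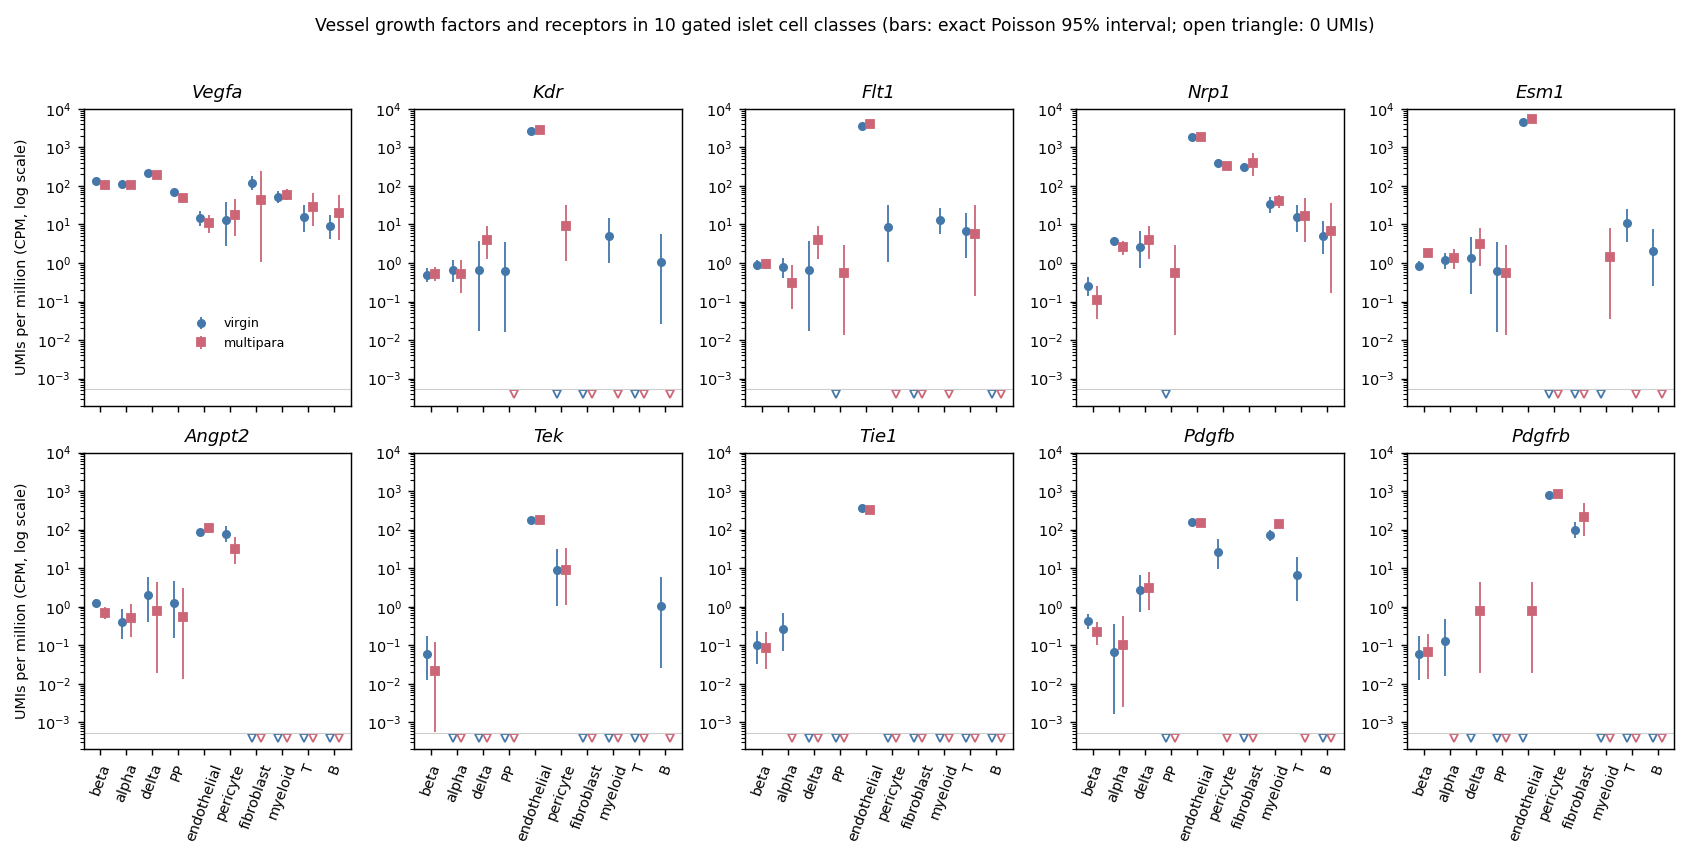
CPM of each member (log scale) in the 10 gated cell classes of the virgin (circles) and multipara (squares) libraries, with exact Poisson 95% intervals. Open triangles mark a class with 0 UMIs. Vegfa was spread over the endocrine classes, Kdr, Flt1, Esm1, Tek and Tie1 stood in endothelial cells, and Pdgfrb stood in pericytes at 812 and 818 CPM.

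The start regions of the endothelial receptor genes are shown because these genes were measured together in the same cells. RefSeq promoter entries (GRCm38.p6) matched 7 of the 10 members, namely Vegfa, Kdr, Flt1, Nrp1, Esm1, Tek and Tie1, while Angpt2, Pdgfb and Pdgfrb had no entry. The 250 bases before the start were searched on both strands for GGAAG, the core letters bound by ETS factors, a family that acts widely in endothelium, and for ACGTG, the core letters bound by hypoxia-inducible factors, which act on Vegfa. The sequences run 5′ to 3′ on the gene's strand, and capitals mark GGAAG or its reverse complement CTTCC. They lie at chr5:75978456-75978705 (minus strand, Kdr), chr5:147726012-147726261 (minus strand, Flt1), chr4:94739039-94739288 (plus strand, Tek) and chr4:118489850-118490099 (minus strand, Tie1).
Kdr: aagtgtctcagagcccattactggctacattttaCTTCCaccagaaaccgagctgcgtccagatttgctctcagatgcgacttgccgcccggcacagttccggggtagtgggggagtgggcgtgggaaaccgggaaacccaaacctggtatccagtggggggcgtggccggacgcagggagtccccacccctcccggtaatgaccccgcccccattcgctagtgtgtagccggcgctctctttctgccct
Flt1: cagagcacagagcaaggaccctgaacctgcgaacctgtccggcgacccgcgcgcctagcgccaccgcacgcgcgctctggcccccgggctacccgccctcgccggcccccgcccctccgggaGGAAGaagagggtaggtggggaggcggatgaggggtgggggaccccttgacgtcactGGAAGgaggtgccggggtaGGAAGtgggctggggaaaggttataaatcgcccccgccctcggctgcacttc
Tek: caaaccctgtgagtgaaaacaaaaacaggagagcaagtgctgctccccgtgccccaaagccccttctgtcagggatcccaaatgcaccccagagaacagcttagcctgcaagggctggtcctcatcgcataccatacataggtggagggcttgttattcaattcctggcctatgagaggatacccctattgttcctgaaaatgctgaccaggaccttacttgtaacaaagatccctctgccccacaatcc
Tie1: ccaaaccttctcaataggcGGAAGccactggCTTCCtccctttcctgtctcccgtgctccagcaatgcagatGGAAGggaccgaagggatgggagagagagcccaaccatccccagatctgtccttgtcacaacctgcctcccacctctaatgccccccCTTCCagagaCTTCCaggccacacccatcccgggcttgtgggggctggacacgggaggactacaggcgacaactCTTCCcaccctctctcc

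GGAAG stood once in the Kdr window, 3 times in that of Flt1, 6 times in that of Tie1 and not in that of Tek. Of the other members, Nrp1 held it 3 times and both Vegfa starts once, while Esm1 held none, so that 5 of 7 members held it in at least 1 window. Among all 32851 promoters in the table, 64.1% held GGAAG in a window of this length. ACGTG stood in 1 of the 2 Vegfa windows, that inside the gene, and in no other member, against 16.6% of all promoters. No match of one motif overlapped the other. By the gene positions given below, the Nrp1 window lay wholly inside the gene and the Tie1 window mostly so. The Nrp1 matches and most of the Tie1 matches were therefore not upstream of the gene. A match is a description of letters only.

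Vegfa (ENSMUSG00000023951, chromosome 17, 46016993 to 46032369, minus strand, GRCm38) was the ligand of the endocrine cells, and its level was lower in the multipara library in beta cells. Beta cells held 6790 virgin and 4980 multipara Vegfa UMIs, at 136 CPM (133 to 139) and 108 CPM (105.3 to 111). The log2 ratio was -0.33 (-0.38 to -0.28), a level 20.4% lower in multipara beta cells. Taken relative to the median of all 12943 genes measured in beta cells, which was itself -0.08, it was -0.24, and 15.9% of those genes had a lower ratio. Vegfa was not called, while 7.04% of all genes were called in beta cells in either direction. With each beta cell weighted equally, the ratio was -0.13.

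In alpha cells, Vegfa stood at 111 CPM (106 to 117) in virgin islets and at 106 CPM (99.2 to 112) in multipara islets, a log2 ratio of -0.08 (-0.19 to 0.04). These intervals overlapped. Delta cells had 220 CPM (197 to 245) and 190 CPM (167 to 216), with a ratio of -0.21 (-0.45 to 0.03), which also did not stand apart from counting error. PP cells had 69.3 CPM (57.0 to 83.5) and 48.6 CPM (39.1 to 59.8), and here the ratio of -0.51 (-0.93 to -0.10) left out 0 (-1.04 with cells thinned to 1 depth). All 4 endocrine classes had the lower value in the multipara library, yet in alpha cells the ratio lay 0.01 above the median of all genes of that class.

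The order of the endocrine classes depended on whether hormone transcripts entered the total, since hormones took 57.6% of all UMIs in virgin beta cells and 21.04% in virgin delta cells. With all UMIs as the base, delta cells had the highest level in both libraries and PP cells the lowest. Beta cells stood above alpha cells in the virgin library, while the intervals of these classes overlapped in the multipara library. With the 5 hormone genes left out, virgin beta cells came first at 321 CPM (314 to 329), before delta cells at 279 (249 to 310), alpha cells at 180 (172 to 189) and PP cells at 124 (102 to 149). In the multipara library the same base gave 262 (255 to 270) in beta and 249 (219 to 283) in delta cells, whose intervals overlapped. Alpha and PP cells followed at 178 (167 to 189) and 90.9 (73.1 to 112).

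Vegfa was detected in most beta cells. A UMI was seen in 89.8% (88.3 to 91.2) of virgin and 85.4% (83.5 to 87.1) of multipara beta cells, with a median of 4 and 3 UMIs per cell and a highest count of 20 and 14. In endothelial cells, at their lower median depth, 5.06% and 6.37% of cells had one. Each beta cell was then thinned to 2000 UMIs, a depth that 78 virgin and 152 multipara cells did not reach, and 23.7% (21.7 to 25.9) and 19.4% (17.4 to 21.6) of the others kept a Vegfa UMI. The multipara share was lower by either count, by a margin that left the intervals apart. Beta cells held 61.9% of all virgin Vegfa UMIs and 66.8% of the multipara ones, and alpha cells 15.5% and 13.9%.

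Outside the endocrine cells, Vegfa was seen at 120 CPM (77.1 to 179, 24 UMIs) in virgin fibroblasts and at 53.1 CPM (36.3 to 75.0) and 59.9 CPM (43.2 to 81.0) in virgin and multipara myeloid cells. The ratio in myeloid cells was 0.17 (-0.53 to 0.88). Endothelial cells stood at 14.5 CPM (8.88 to 22.4) and 10.8 CPM (5.90 to 18.1), and pericytes, T and B cells held 3 to 9 UMIs per library. The endothelial ratio was -0.43 (-1.53 to 0.63), and 0.34 with a hormone limit of 5%. These low classes overlapped one another.

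Kdr (ENSMUSG00000062960, chromosome 5, 75932827 to 75978458, minus strand), the main signalling receptor for VEGF-A, had 3606 virgin and 3729 multipara UMIs in endothelial cells, or 2621 CPM (2536 to 2708) and 2875 CPM (2784 to 2969). Its log2 ratio was 0.13 (0.07 to 0.20). Flt1 (ENSMUSG00000029648, chromosome 5, 147561604 to 147726011, minus strand), the decoy receptor, had 3683 CPM (3583 to 3786) and 4149 CPM (4038 to 4261), with a ratio of 0.17 (0.12 to 0.23). Both were higher in the multipara library with intervals that left out 0, and neither reached 1.5-fold. With cells thinned to 1 depth the Kdr ratio was 0.28. Of 9 members with at least 20 UMIs in endothelial cells, 0 were called, while 5.28% of all 8625 genes measured there were called in either direction.

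Nrp1 (ENSMUSG00000025810, chromosome 8, 128358604 to 128503363, plus strand), the co-receptor, was level in endothelial cells at 1854 CPM (1783 to 1927) and 1848 CPM (1774 to 1923), a ratio of -0.01 (-0.09 to 0.08). It reached beyond the endothelium. Pericytes held it at 400 CPM (322 to 491) and 325 CPM (254 to 410), with a ratio of -0.30 (-0.76 to 0.17), and virgin fibroblasts at 316 CPM (243 to 404). Myeloid cells had 33.2 and 39.9 CPM. Endothelial cells held 81.5% of virgin and 79.2% of multipara Nrp1 UMIs, against 90.2% and 81.6% for Kdr. Cells kept out of every class, mostly for markers of several kinds or several hormones, held 8.83% of virgin and 17.6% of multipara Kdr UMIs, and 7.58% and 17.4% of those of Esm1.

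The 3 VEGF-A receptors were seen together in nearly every endothelial cell. A UMI of each of Kdr, Flt1 and Nrp1 was present in 92.2% (88.2 to 95.2) of virgin and 98.0% (95.1 to 99.5) of multipara endothelial cells. Multipara endothelial cells were deeper, so the cells were also thinned to 1500 UMIs. Kdr was then detected in 90.3% and 97.5% of cells and Flt1 in 94.96% and 99.5%, while Nrp1 was detected in 90.3% and 92.9%. Kdr had a UMI in 1.44% of virgin and 1.47% of multipara beta cells, which were far deeper.

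**Figure D2:**
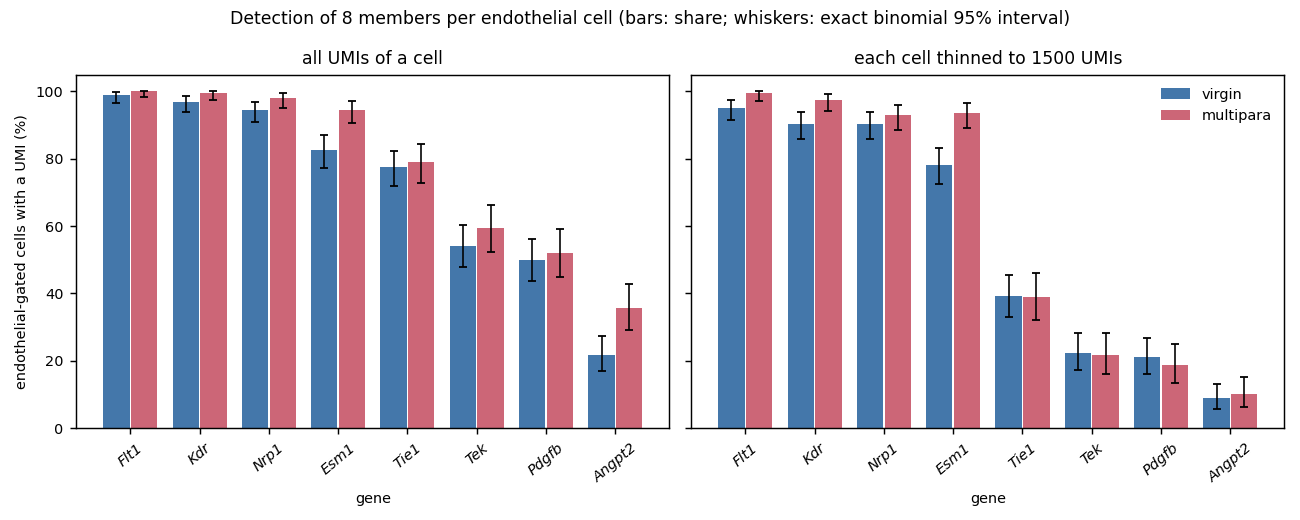
Share of endothelial-gated cells with a UMI of each of 8 members in the virgin (blue) and multipara (red) libraries, from all UMIs (left) and with each cell thinned to 1500 UMIs (right); whiskers are exact binomial 95% intervals. Esm1 differed on both sides (82.5% and 94.6% of cells with all UMIs), while the gap in Angpt2 (21.8% and 35.8%) was smaller after thinning.

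Esm1 (ENSMUSG00000042379, chromosome 13, 113209659 to 113218098, plus strand), the secreted proteoglycan endocan, differed more between the libraries than Kdr, Flt1 or Nrp1 did. Endothelial cells held 6345 Esm1 UMIs in the virgin library and 7207 in the multipara one, which put it at 4612 CPM (4499 to 4726) and 5557 CPM (5430 to 5687). The log2 ratio was 0.27 (0.22 to 0.32), or 20.5% higher, above 83.8% of the genes measured in these cells. It was detected in 82.5% (77.3 to 86.9) of virgin and 94.6% (90.6 to 97.3) of multipara endothelial cells. Thinned to 1500 UMIs, the shares were 78.2% and 93.4%. Among the endothelial cells with an Esm1 UMI, a set picked on Esm1 itself, the Esm1 ratio was 0.10 (0.05 to 0.15). In the same cells Kdr was at 0.01 (-0.05 to 0.08), Flt1 at 0.08 (0.02 to 0.14) and Nrp1 at -0.13 (-0.22 to -0.05).

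Esm1 was at 0 in 45 virgin endothelial cells (17.5%, 13.1 to 22.7) and in 11 multipara ones (5.39%, 2.72 to 9.44). A minority of these cells held markers of venous endothelium: Selp (P-selectin) was seen in 17.8% of the 45 virgin cells and Ackr1, a chemokine-binding protein of venules, in 15.6%, while both were at 0 in the 212 virgin cells with Esm1. Of the 45 virgin cells, 11 held any venous or lymphatic marker and 34 held none. Kdr stood at 502 CPM in those 11 cells and 1195 CPM in those 34, against 2877 CPM in the virgin cells with Esm1. Cells with a UMI of a venous (Selp, Ackr1, Vwf) or lymphatic (Lyve1, Mmrn1, Ccl21a) marker numbered 15 of 257 virgin and 7 of 204 multipara cells. The sets were unlike each other, as Esm1 stood at 1103 CPM in the 15 virgin cells and at 5369 CPM in the 7 multipara ones. Without them, Esm1 stood at 4875 and 5568 CPM, with a ratio of 0.19 (0.14 to 0.24). Kdr then had a ratio of 0.03 (-0.03 to 0.10), which no longer left out 0, and Flt1 a ratio of 0.10 (0.05 to 0.16). The part of vessel type in these differences was not tested further, and this split was chosen after the values were seen.

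Angpt2 (ENSMUSG00000031465, chromosome 8, 18690263 to 18741562, minus strand), the endothelium's own TEK ligand, was far more sparse. Endothelial cells held 122 virgin and 140 multipara UMIs, at 88.7 CPM (73.6 to 106) and 108 CPM (90.8 to 127). The ratio of 0.28 (-0.08 to 0.65) did not leave out 0. It was detected in 21.8% (16.9 to 27.3) of virgin and 35.8% (29.2 to 42.8) of multipara endothelial cells, but at 1500 UMIs per cell the shares were 8.82% and 10.1%. Without the cells that held a venous or lymphatic marker, the levels were 82.8 and 111 CPM and the ratio was 0.42 (0.04 to 0.80). Among virgin endothelial cells with Angpt2, 96.4% also held Esm1, as did all 73 multipara ones, and Kdr stood there at 3106 and 3093 CPM. These cells also held 90 of the 116 virgin and 47 of the 50 multipara UMIs of Apln, the gene of the ligand apelin, and were deeper than the rest, with medians of 6505 and 7392 UMIs.

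Pericytes had the next highest level of Angpt2, at 79.0 CPM (46.8 to 125) from 18 virgin UMIs and 31.6 CPM (12.7 to 65.1) from 7 multipara UMIs. The ratio of -1.32 had an interval of -2.82 to 0.01. At this depth a difference could not be told from counting error. Myeloid cells, T cells, B cells and fibroblasts held 0 Angpt2 UMIs in both libraries.

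The receptors of this pathway were level between libraries. Tek (ENSMUSG00000006386, chromosome 4, 94739289 to 94874976, plus strand) stood in endothelial cells at 179 CPM (157 to 203) and 176 CPM (154 to 200), a ratio of -0.02 (-0.29 to 0.24). Tie1 (ENSMUSG00000033191, chromosome 4, 118471191 to 118490061, minus strand) had 361 CPM (330 to 394) and 331 CPM (300.2 to 364), a ratio of -0.13 (-0.32 to 0.06). Among the other non-endocrine classes, pericytes held 2 Tek UMIs in each library and 0 of Tie1. A UMI of both receptors was present in 44.4% and 51.0% of endothelial cells. Angpt2 stood beside Tek in 12.5% of virgin and 24.5% of multipara endothelial cells, a share that moves with depth.

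Pdgfb (ENSMUSG00000000489, chromosome 15, 79995874 to 80014977, minus strand), the ligand that recruits pericytes, was held mainly by endothelial cells, at 162 CPM (142 to 185, 223 UMIs) and 146 CPM (126 to 168, 189 UMIs). The ratio was -0.15 (-0.44 to 0.13). Its receptor Pdgfrb (ENSMUSG00000024620, chromosome 18, 61045150 to 61085061, plus strand) stood in pericytes at 812 CPM (700 to 938, 185 UMIs) and 818 CPM (703 to 946, 181 UMIs), a ratio of 0.01 (-0.29 to 0.31). Neither Pdgfb in endothelial cells nor Pdgfrb in pericytes differed beyond counting error. Pericytes themselves held 6 Pdgfb UMIs in the virgin library and 0 in the multipara one, too few for the limit of 20 UMIs, though the upper end of the interval of the log2 ratio was -0.20. Of 3 members with 20 UMIs in pericytes (Pdgfrb, Nrp1 and Angpt2), 0 were called, against 5.78% of 3703 genes. Fibroblasts also held Pdgfrb, at 100.3 CPM in the virgin library, and endothelial cells had 0 and 1 Pdgfrb UMIs. The 7 fibroblast markers summed to 167 CPM in the virgin and 0 CPM in the multipara pericyte gate. Dcn, a matrix proteoglycan, was 1 of 7 with at least 20 UMIs (36 and 0), and their part in the pericyte values was not tested.

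Myeloid cells were the second source of Pdgfb, and there the libraries differed. They held 43 virgin and 99 multipara UMIs, at 71.4 CPM (51.7 to 96.2) and 141 CPM (115 to 172). The ratio of 0.98 (0.45 to 1.54) was past 1.5-fold, which made Pdgfb 1 of 3 members called in these cells, where 16.5% of 5144 genes were called. Myeloid cells supplied 12.5% of all virgin and 28.5% of all multipara Pdgfb UMIs. The mix of myeloid cells differed too, as C1qb, a complement component of resident macrophages, was present in 66 of 90 virgin and 91 of 98 multipara cells. Within the cells with C1qb, Pdgfb stood at 110 CPM (78.3 to 151) and 151 CPM (122 to 184), whose intervals overlapped, with a ratio of 0.45.

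**Figure D3:**
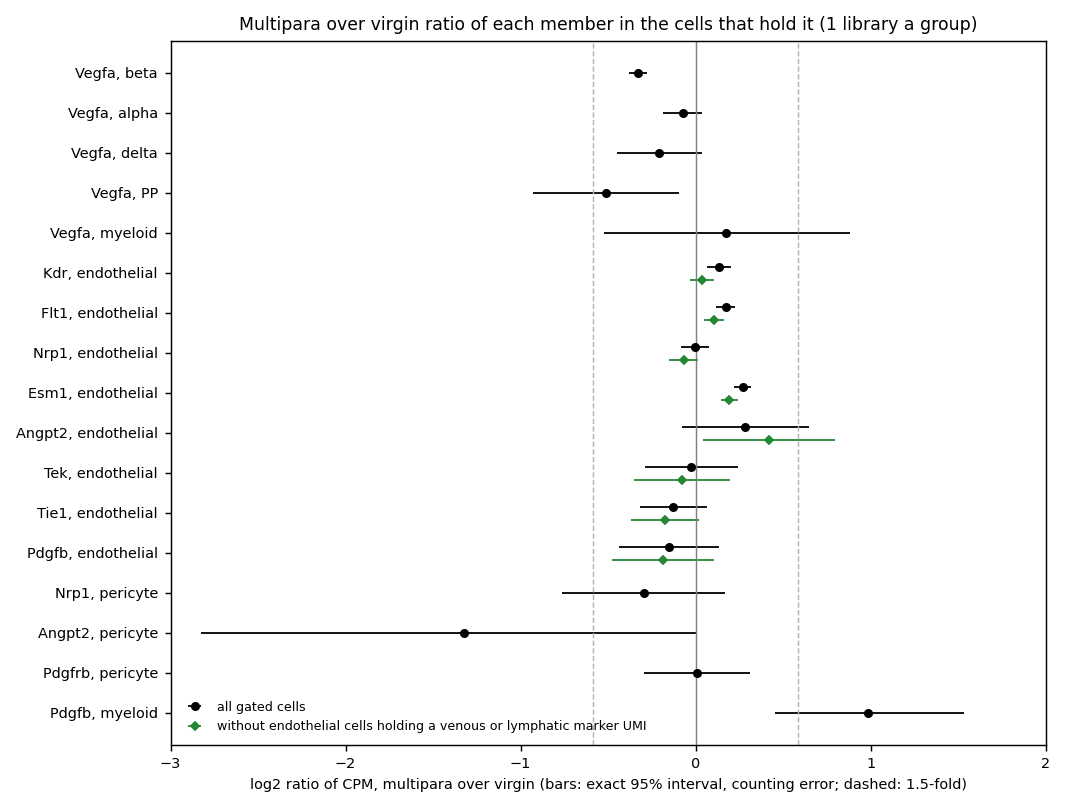
Log2 ratio of CPM, multipara over virgin, of the members in selected cell classes that hold them, with exact 95% intervals for counting error. Dashed lines mark 1.5-fold. Green diamonds leave out endothelial cells with a venous or lymphatic marker UMI, which moved Kdr from 0.13 to 0.03. Of the points drawn, only Pdgfb in myeloid cells, at 0.98, was past a dashed line with an interval clear of 0. Esm1 (1.10) and Angpt2 (-0.86) in beta cells were also called and are not drawn.

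A trace of the endothelial genes was found in endocrine cells. Kdr in beta cells was at 0.0191% of its endothelial level in virgin islets and 0.0182% in multipara islets, and Flt1 at 0.0239% and 0.0231%. Esm1 was at 0.0183% and 0.0325%. These 3 genes lay close together in the virgin library. Esm1 was nevertheless called higher in multipara beta cells (42 and 83 UMIs, ratio 1.10, 0.55 to 1.67). As many as 9 of those multipara UMIs came from 1 droplet, the share of beta cells with an Esm1 UMI was 2.35% and 3.51%, and the ratio was 0.42 with a mitochondrial limit of 5% and 2.81 with each cell weighted equally.

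Angpt2 did not follow that proportion in beta cells, and not in beta cells alone. It stood at 1.42% (1.03 to 1.95) of its endothelial level in virgin and 0.645% (0.425 to 0.952) in multipara beta cells. Both were far above the Kdr, Flt1 and Esm1 shares. Alpha cells stood at 0.442% and 0.471% from 6 and 5 UMIs, and delta cells at 2.24% and 0.714% from 3 and 1. PP cells held 2 and 1 UMIs, which put the virgin ones at 1.42%. The intervals of delta and PP cells overlapped those of beta cells in both libraries. Those of alpha cells did so only in the multipara library. The counts were small, at 63 and 32 UMIs in 3.21% and 2.04% of beta cells, or 1.26 CPM (0.970 to 1.62) and 0.696 CPM (0.476 to 0.982). Beta cells still held 25.9% of all virgin and 13.4% of all multipara Angpt2 UMIs, against 7.41% and 2.93% in pericytes. The ratio of -0.86 (-1.52 to -0.22) was called lower. After thinning it was -2.09, but only 5 virgin and 1 multipara beta cells then kept an Angpt2 UMI. In all, 2 of 6 members with 20 UMIs in beta cells were called, Esm1 upward and Angpt2 downward, against 7.04% of all genes. Pdgfb was at 0.260% and 0.149% of its endothelial level in beta cells, from 21 and 10 UMIs.

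Nrp1 was a further exception in alpha cells, with 56 virgin and 25 multipara UMIs, or 3.66 CPM (2.76 to 4.75) and 2.54 CPM (1.64 to 3.75). This was 0.197% (0.149 to 0.257) and 0.138% (0.0888 to 0.204) of its endothelial level, while Kdr in alpha cells was at 0.0249% and 0.0177%. Beta cells had 13 and 5 Nrp1 UMIs in a larger total. Delta cells, with 4 and 5 UMIs, stood at 0.143% (0.0389 to 0.366) and 0.209% (0.0677 to 0.488), which overlapped alpha cells. The Nrp1 ratio in alpha cells was -0.53 (-1.27 to 0.18), and 0 of 3 members with 20 UMIs in alpha cells were called, against 4.45% of 11885 genes. Endocrine cells held 0 to 5 UMIs of Tek, Tie1 and Pdgfrb per class and library.

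**Figure D4:**
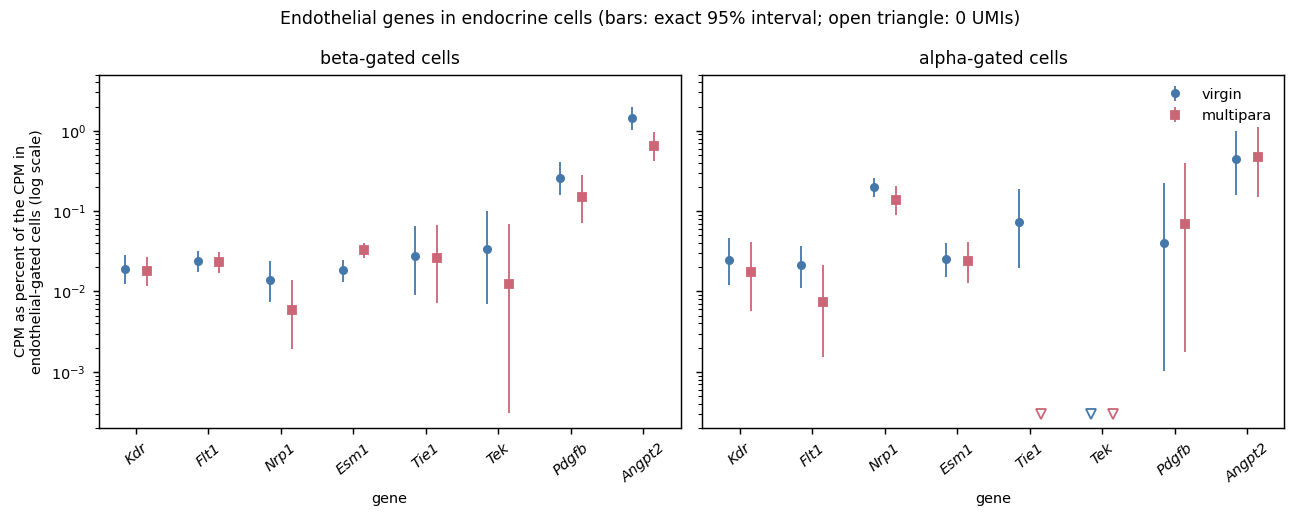
CPM of 8 members in beta (left) and alpha cells (right) as a percent of their CPM in the endothelial cells of the same library, on a log scale, with exact 95% intervals; open triangles mark 0 UMIs. In beta cells Kdr, Flt1 and Esm1 lay between 0.0182% and 0.0325% and Angpt2 at 1.42% and 0.645%. In alpha cells Nrp1 lay at 0.197% and 0.138% and Angpt2 at 0.442% and 0.471%.

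The other genes of these pathways were taken from 12 lists with 107 genes in all. In endothelial cells 83 of them had at least 20 UMIs, and 2 were called higher and 11 lower in the multipara library. Over all 8625 genes of the class 5.28% were called, 136 higher and 319 lower. Their median log2 ratio was 0.06 (0.05 with genes at 0 in the multipara library set to their bound), beside -0.05 over all genes of the class. Igfbp3, which encodes an insulin-like growth factor binding protein, was the called gene with most UMIs, at 2475 and 4240 CPM (3406 and 5498 UMIs, ratio 0.78, 0.71 to 0.84). Cxcr4, a chemokine receptor of sprouting tip cells, was at 53.8 and 89.4 CPM (ratio 0.73, 0.30 to 1.17). The pericyte marker Rgs5 was also higher in the multipara endothelial gate, at 60.3 and 144 CPM. The other 6 pericyte markers had 0 to 3 UMIs each there, so that the 7 together summed to 66.9 and 152 CPM. Without the cells that held a pericyte marker, the Cxcr4 ratio was 0.31 and that of Igfbp3 0.68, while Kdr, Flt1 and Esm1 were at 0.12, 0.14 and 0.28. Thinned to 1 depth, Cxcr4 had a ratio of 1.79 from 8 and 23 UMIs. The other genes at the top of the lists by level were within 1.5-fold: Plvap at 4925 and 5353 CPM, Rgcc, a cell cycle regulator, at 1824 and 1731, Id1, a BMP target, at 1394 and 1359, and Eng (endoglin), a TGF-beta co-receptor, at 1318 and 1327.

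Among the genes called lower, 4 of the 6 on the venous list stood together. Selp had 139 and 13 UMIs (ratio -3.33), Ackr1 48 and 5 (-3.18), Vwf (von Willebrand factor) 72 and 12 (-2.50) and Nr2f2, the transcription factor of vein identity, 26 and 4 (-2.62). Selp came from 3.11% of virgin and 0.490% of multipara endothelial cells, so these counts rest on a few cells. With each cell weighted equally, the ratios of Selp, Ackr1 and Nr2f2 were -1.83, -1.61 and -1.62. From the lymphatic list, Ccl21a had 158 and 0 UMIs, at least 49.6-fold lower against a floor of 3 counts, and Mmrn1 had 20 and 0, at least 6.28-fold lower. All 158 Ccl21a UMIs lay in 4 virgin cells.

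The remaining 5 genes called lower came from 4 lists. On the list of Notch, tip and stalk cell genes 2 of 16 were lower and 1 higher, on the VEGF list 1 of 9 was lower, on the PDGF list 1 of 2, and on the list of TGF-beta, BMP and S1P receptors 1 of 10. Aplnr, the receptor for apelin, had 82 virgin and 6 multipara UMIs, or 59.6 and 4.63 CPM (ratio -3.69, -5.17 to -2.50), and was seen in 13.2% and 1.47% of them. Its ligand Apln, a tip cell product, had 84.3 and 38.6 CPM (ratio -1.13, -1.64 to -0.64), in 10.1% and 9.31% of cells. Without the cells that held a venous or lymphatic marker, Aplnr had a ratio of -3.60 and Apln one of -1.08. Vegfc, the ligand of lymphatic growth, had 70 and 30 UMIs (-1.14), Pdgfa, a second PDGF chain, 70 and 24 (-1.46), and Tgfbr3 (betaglycan) 28 and 12 (-1.14). With the marker-positive cells left out, these 3 ratios were -1.04, -1.51 and -1.26, while thinning to 1 depth left Apln at -0.38 and Tgfbr3 at -0.22, inside 1.5-fold, and Vegfc at -1.73. Without the marker-positive cells 7 pathway genes were called in all (2 higher, 5 lower). Selp, Ackr1, Vwf, Mmrn1 and Ccl21a could not be among them, since every cell with a UMI of these genes was left out.

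**Figure D5:**
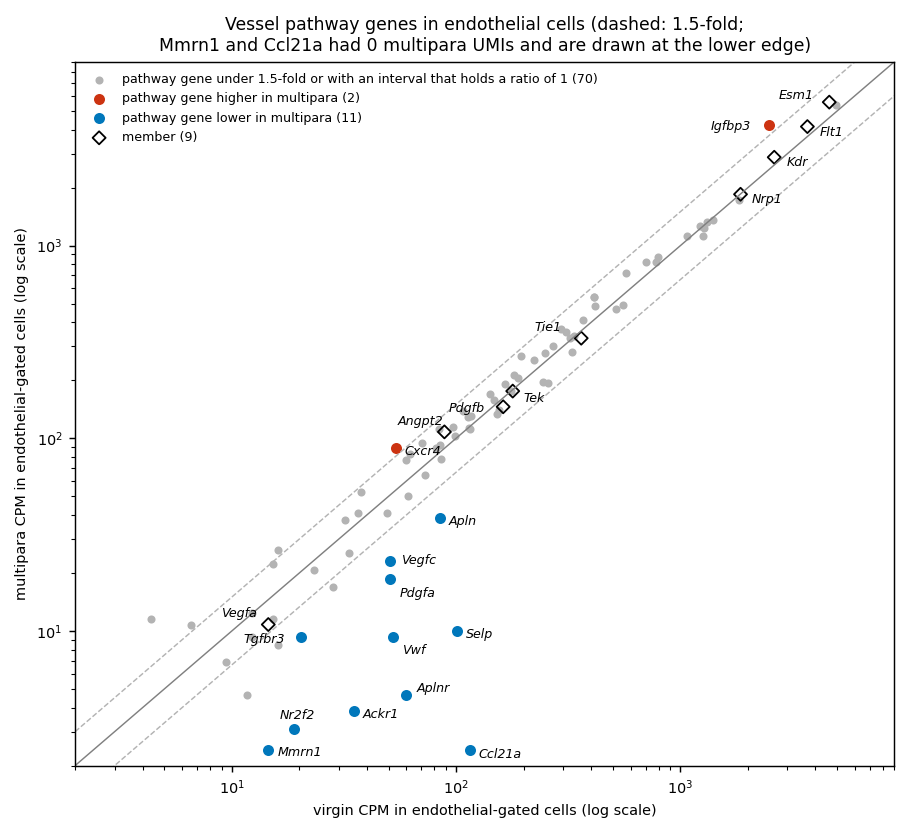
Multipara against virgin CPM (log scales) in endothelial-gated cells for the 83 pathway genes and 9 members with at least 20 UMIs; the solid line marks equal levels and dashed lines 1.5-fold. The 9 members lay within 1.5-fold, 2 pathway genes were called higher and 11 lower.

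In beta cells 50 pathway genes had at least 20 UMIs, of which 0 were called higher and 6 lower. Over all 12943 genes of these cells 7.04% were called, 308 higher and 603 lower. Pgf, which encodes placental growth factor, a ligand of FLT1, was the best counted of them, with 411 virgin and 155 multipara UMIs, or 8.24 and 3.37 CPM (ratio -1.29, -1.57 to -1.02). In alpha cells Pgf was at 21.03 and 17.1 CPM (-0.30) and in pericytes at 114 and 126 CPM (0.15). The related ligand Vegfb was level in beta cells, at 30.6 and 29.9 CPM. Id3, a BMP target, was lower in beta cells with 128 and 46 UMIs (-1.36), as were Dll1, a Notch ligand, with 101 and 39 (-1.26), Tgfbr3 with 276 and 152 (-0.74), Reln with 26 and 4 (-2.58) and Ccl21a with 22 and 0. With each cell weighted equally, Id3 was at -0.35 and Dll1 at -0.33, inside 1.5-fold, and thinning put Id3 at -3.09 from 10 and 1 UMIs, while Reln was at -1.71 with a mitochondrial limit of 5%. On the list of hypoxia and Vegfa control, 11 genes were measured in beta cells and 0 were called, with a median ratio of -0.15.

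In alpha cells 46 pathway genes were measured, with 3 called higher and 5 lower. Over all 11885 genes of these cells 4.45% were called, 162 higher and 367 lower. The BMP targets Id1 and Id3 were lower at 32.5 and 17.6 CPM (-0.88) and at 36.8 and 21.3 CPM (-0.78). Jag1, a Notch ligand (-1.82), Efnb2, an ephrin of arterial identity (-1.24), and Nos3, the endothelial nitric oxide synthase (-0.74), were lower, with 22 and 4, 44 and 12, and 57 and 22 UMIs. Ppargc1a, a coactivator known to act on Vegfa, was higher at 8.62 and 13.8 CPM (0.68), as were Hes1, a Notch target, at 8.10 and 13.5 CPM (0.74) and Cav1 at 2.55 and 6.201 CPM (1.28). Thinned to 1 depth, Nos3 was at -0.12 and Hes1 at 0.27, inside 1.5-fold. With cells classed by their highest hormone, Ppargc1a was at 0.51 and Hes1 at 0.58, also inside it, and Jag1 at -1.01.

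In pericytes 41 pathway genes were measured and 1 was called, Klf4, higher at 501 and 1034 CPM (114 and 229 UMIs, ratio 1.05, or 0.59 with a mitochondrial limit of 5%), against 5.78% of all 3703 genes, 102 higher and 112 lower. Klf4 is also an early response gene, and of 15 genes that respond to dissociation, 3 were called higher in these cells and 0 lower. They were Hspa1a at 1476 and 2945 CPM (0.997), Hspa1b at 215 and 425 CPM (0.98) and Ier3 at 145 and 235 CPM (0.70), and the 15 together summed to 30398 and 34527 CPM. Their part in the Klf4 value was not tested. Of the other angiopoietins, Angpt1, the activating ligand of TEK, had 8 and 6 UMIs in pericytes and 0 in endothelial cells.

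The genes most like each member were sought among 15131 genes by Pearson correlation of log2(CPM + 1) over 9 classes in both libraries, 18 points in all. Points of 1 library share its depth and any free RNA, so these values are a description. For a member seen almost only in a single class, such as Tie1, the correlation rests mostly on the points of that class. Other genes limited to that class then score high as well. The nearest gene to Vegfa was G730003C15Rik (r = 0.94), followed by Atp6v1g2 (0.93), a proton pump subunit of neuronal and endocrine cells, and Stau2 (0.93), an RNA-binding protein. Kdr was nearest to Alox12 (0.98), Gata2 (0.97) and Smad6 (0.97), and Flt1 to Ace (0.96), Flt4 (0.96) and Podxl (0.96). Esm1 was nearest to Stmn2 (0.99), Adgrl4 (0.99) and Arhgef15 (0.98), and Nrp1 to Rbms1 (0.97), Eng (0.96) and Map4 (0.96). Angpt2, at its highest CPM in endothelial cells and pericytes, lay nearest to Mn1 (0.99), Col4a2 (0.99) and Tril (0.98). Tek lay nearest to Hoxd8 (0.99), Hspg2 (0.99) and Nid2 (0.99), and Tie1 to Fam198b, Klhl4 and Lpar4 (0.9998, 0.9998 and 0.9997). Pdgfb, with its myeloid share, was nearest to Igf1 (0.94), Cflar (0.94) and Itga9 (0.93), and Pdgfrb to Notch3, Higd1b and Naalad2 (0.999, 0.998 and 0.997). Notch3 and Higd1b were markers of the pericyte gate, so their likeness to Pdgfrb is no independent result.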

How the data were processed

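Islet cells of 1 virgin and 1 multipara library (10x Chromium 3′ v3.1) were analysed from the deposited matrices, which hold raw UMI counts per gene and barcode. Per the submitters' processing notes, the authors used Cell Ranger 3.1.0 and Seurat 3.0 with the GRCm38 (mm10) genome. Barcodes numbered 5463 and 5075, and total counts 94853806 and 82503776. Following the study, kept cells had over 200 genes but less than 6000, less than 60000 UMIs, and mitochondrial genes below 10% of UMIs. Beta cells had at least 5% insulin UMIs, and alpha, delta and PP cells at least 2% of their hormone, with the other hormones under their gates. Other classes had at least 3 of 7 markers and under 10% hormone UMIs. UMIs were summed per class and scaled to CPM. Intervals were exact Poisson, Clopper-Pearson or conditional binomial (95%), since 1 library a group allows no test. Doublets were left in, and Scrublet calls (scanpy 1.11.5) were removed as an alternative. edgeR 4.0.16 gave the TMM factors. The interval method was run on simulated Poisson counts. These hold no clustering of UMIs in a few cells, so the run cannot show how the intervals behave there.

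Members and lists were chosen with earlier results of these data known. Named were the 10 members, up to 10 called pathway genes per class, the 5 pathway genes with the highest endothelial CPM and 3 like genes per member. Apln and Cxcr4, other ligands of the families, Hspa1a, Hspa1b, Ier3 and the gate and subset markers were named after their values were seen. Gene positions came from GENCODE M21 (GRCm38). Alternatives changed the cell filter, gates, doublets, scaling, weighting and depth.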

Additional observations from a re-analysis of the deposited data

How the results depend on the processing

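With 1 library a group, no alternative replaces a replicate, and no paired analysis was possible because each group had a single library. Of 354 recomputed ratios of members and 341 of pathway genes, 0 turned the sign of a ratio whose interval left out 0, and 327 and 328 stayed within the interval of the ratio given above. For Vegfa in beta cells (-0.33) the ratio was -0.25 with TMM scaling, -0.25 with median-of-ratios scaling, -0.25 with cells thinned to 1 depth and -0.13 with each cell weighted equally. For Kdr in endothelial cells (0.13) it was 0.0672 with at least 2 markers, 0.20 with TMM scaling, 0.28 after thinning and 0.0350 without cells that held a venous or lymphatic marker. For Esm1 there (0.27) it was 0.22 with at least 2 markers, 0.34 with TMM scaling and 0.19 without those cells. Vegfa in alpha cells and Pdgfrb in pericytes stayed within their intervals. The count of 0 called members in endothelial cells held under every alternative tried. The 13 called pathway genes became 22 at the lower fold limit tried (10 higher, 12 lower), 7 after thinning and 7 without marker-positive cells. Much of that last fall was fixed by the choice of cells. Selp, Ackr1, Vwf, Mmrn1 and Ccl21a had no UMI left and could not be called. Apart from scaling, the causes were not tested. Leaving out marker-positive cells, endothelial cells with a pericyte marker or myeloid cells without C1qb, and classing cells by their highest hormone, were chosen after seeing the data. In pericytes, Angpt2 rested on 18 and 7 UMIs, and a smaller difference was not detectable at this depth.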
